A study of Mus musculus with 6 samples.

Results

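Cytochrome P450 family 2 (Cyp2) is the largest P450 family of the mouse, a group of haem-containing monooxygenases, and its response to interleukin-1β (IL-1β) was examined in cultured hepatocytes. Its members were taken as every gene of the deposited table whose symbol starts with Cyp2, a single subfamily letter and a number, except Cyp2e1 and Cyp2r1. That gave 48 of 23282 listed genes, in 11 subfamilies. The samples were primary hepatocytes from C57BL6/N mouse liver, 3 cultured without treatment (control) and 3 treated with recombinant IL-1β for 24 h, all with the same genotype label and no transgene named. The cells were freshly plated after collagenase perfusion, so other liver cells could be carried over, and the sex of the mice was not given in the sources used here. A dose of recombinant cytokines is stated for a neighbouring experiment of the study, and not by name for the sequenced cultures. RNA was read by QuantSeq 3′ mRNA-Seq, which primes at the poly(A) tail and counts reads near the 3′ end of each transcript.

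As background, P450 enzymes sit in the membrane of the endoplasmic reticulum, bind haem and oxidise their substrates with electrons passed on by P450 oxidoreductase (Por) and, for some, cytochrome b5. Family 2 members hydroxylate steroids, bile acids and drugs, and several epoxidise arachidonic acid. The mouse genome carries many more of them than the human genome because tandem duplication left clusters of near-identical genes, and hepatic P450 expression is known to fall during inflammation.

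The 16 Cyp2c members lie on chromosome 19, the 10 Cyp2d members on chromosome 15, the 7 Cyp2j members on chromosome 4 and the Cyp2a, Cyp2b and Cyp2f members on chromosome 7. The coding sequences of tested members were between 40.2% and 98.4% identical to each other, the highest value being that of Cyp2a4 and Cyp2a5. Values below 51% all involved Cyp2d40, whose annotated coding sequence had 1014 nt, against 1467 to 1560 nt for the others. Close paralogs share their upstream DNA as well as their transcripts. Sequences just upstream of the annotated starts are shown for every tested member with an HNF4 core match (defined below). Those of Cyp2j5, Cyp2a5 and Cyp2a4, which have no such match, are added. The other tested members with a promoter also had none and are not shown, so the display overstates how common the match was. Each sequence is the 150 bases before the start, read from RefSeq promoters of GRCm38.p6, 5′ to 3′ on the strand of the gene. Capitals mark letters that match the HNF4 core motif CAAAGTNCA or the C/EBP motif TTGCNNAA on either strand.

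Cyp2c70: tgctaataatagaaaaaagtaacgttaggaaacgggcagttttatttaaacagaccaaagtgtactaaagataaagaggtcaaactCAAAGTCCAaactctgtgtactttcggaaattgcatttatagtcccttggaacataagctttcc
Cyp2c69: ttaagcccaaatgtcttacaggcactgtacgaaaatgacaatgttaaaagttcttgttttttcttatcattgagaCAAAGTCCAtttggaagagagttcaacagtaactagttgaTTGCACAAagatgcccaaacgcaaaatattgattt
Cyp2c68: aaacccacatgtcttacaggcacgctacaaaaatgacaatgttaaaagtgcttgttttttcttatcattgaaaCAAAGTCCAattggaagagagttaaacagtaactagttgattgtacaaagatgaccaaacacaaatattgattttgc
Cyp2c67: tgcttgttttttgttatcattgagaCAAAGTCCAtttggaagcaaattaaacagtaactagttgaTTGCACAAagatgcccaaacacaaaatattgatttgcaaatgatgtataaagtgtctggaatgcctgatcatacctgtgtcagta
Cyp2c40: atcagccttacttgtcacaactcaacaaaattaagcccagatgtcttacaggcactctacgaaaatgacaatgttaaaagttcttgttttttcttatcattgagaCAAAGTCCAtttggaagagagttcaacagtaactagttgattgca
Cyp2c50: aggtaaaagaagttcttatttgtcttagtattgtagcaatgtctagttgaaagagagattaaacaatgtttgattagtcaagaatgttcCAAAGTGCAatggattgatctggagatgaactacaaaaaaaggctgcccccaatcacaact
Cyp2c37: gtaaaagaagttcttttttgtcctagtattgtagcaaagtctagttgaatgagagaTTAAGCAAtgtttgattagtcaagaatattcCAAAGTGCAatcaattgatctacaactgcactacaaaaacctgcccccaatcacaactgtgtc
Cyp2d26: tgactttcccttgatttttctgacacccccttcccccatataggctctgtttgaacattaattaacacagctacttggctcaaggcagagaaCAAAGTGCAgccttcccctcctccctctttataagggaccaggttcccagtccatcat
Cyp2j5: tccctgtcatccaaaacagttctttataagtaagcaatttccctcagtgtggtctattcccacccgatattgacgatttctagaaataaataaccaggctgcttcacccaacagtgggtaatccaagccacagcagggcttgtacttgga
Cyp2a5: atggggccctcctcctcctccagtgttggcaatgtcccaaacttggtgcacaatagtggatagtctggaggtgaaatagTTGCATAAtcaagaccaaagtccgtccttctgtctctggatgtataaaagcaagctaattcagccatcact
Cyp2a4: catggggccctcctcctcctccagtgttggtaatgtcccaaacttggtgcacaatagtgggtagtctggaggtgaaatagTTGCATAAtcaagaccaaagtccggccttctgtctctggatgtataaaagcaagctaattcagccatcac

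These stretches lie at chr19:40187287-40187436 (minus strand), chr19:39886770-39886919 (minus), chr19:39741102-39741251 (minus), chr19:39649043-39649192 (minus), chr19:39812815-39812964 (minus), chr19:40089529-40089678 (plus), chr19:39992274-39992423 (plus), chr15:82794246-82794395 (minus), chr4:96664120-96664269 (minus), chr7:26835189-26835338 (plus) and chr7:26307042-26307191 (plus), in the order shown. The first 8 carry a 9-letter HNF4 core match and the last 3 carry none, while Cyp2a5 and Cyp2a4 carry a C/EBP match, as do Cyp2c69, Cyp2c67 and Cyp2c37. The positions and counts of these matches are given after the expression values.

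Library totals were 9538741 to 11105408 counts, so that 3 counts corresponded to 0.268 to 0.32 CPM, the count after TMM (trimmed mean of M-values) normalisation, expressed per 1000000 counts of the library. No library stood apart in depth or in the number of genes detected (13955 to 14261). The labels do not say whether samples of one group came from separate animals or cultures, so p-values measure the spread between these samples, which may be technical. The cells carried hepatocyte markers at a summed 26118 to 26653 CPM in the controls and 22195 to 23908 CPM after IL-1β. Of 10 tested hepatocyte markers 8 fell in the test described next (median log2 fold change of the 10: -0.36), against 6.44% of all tested genes. In bulk RNA fewer cells of a type and less RNA per cell cannot be told apart. Their part in the changes of Cyp2 members was not tested. Counts were not divided by transcript length, so levels of different genes are set side by side only as counts.

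IL-1β lowered much of the family and raised no member. Of the 48 members, 40 had a count in at least 1 library and 24 passed the filter on low counts. Of these 24, 15 fell at an adjusted p below 0.05 (edgeR's quasi-likelihood F test, p-values corrected by Benjamini-Hochberg across 11657 genes), which is 62.5% of the members tested, whereas 6.44% of all tested genes fell. None rose, against 6.97% of all tested genes, and at an unadjusted p below 0.05 the edgeR counts were again 15 lower and 0 higher. DESeq2 called 14 lower and 0 higher. Scaling by total counts turned the calls over all genes from 751 lower and 812 higher into 1007 lower and 662 higher, and left those of the members at 15 and 0. The median log2 fold change was -0.43 for the tested members and -0.00183 for all tested genes. Close paralogs share 3′ sequence, so the calls of members are not all independent of each other.

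In 17 of the 24 tested members (70.8%) every IL-1β sample lay below every control sample, against 14.2% of all tested genes. These 17 were the 15 called genes together with Cyp2d11 and Cyp2d40. One member, Cyp2d13, had every IL-1β sample above every control sample without passing the test. The called reductions ran from -0.28 to -1.38 on the log2 scale, and 4 members fell by more than 1 (Cyp2c70, Cyp2c69, Cyp2c68 and Cyp2j5).

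**Figure D1:**
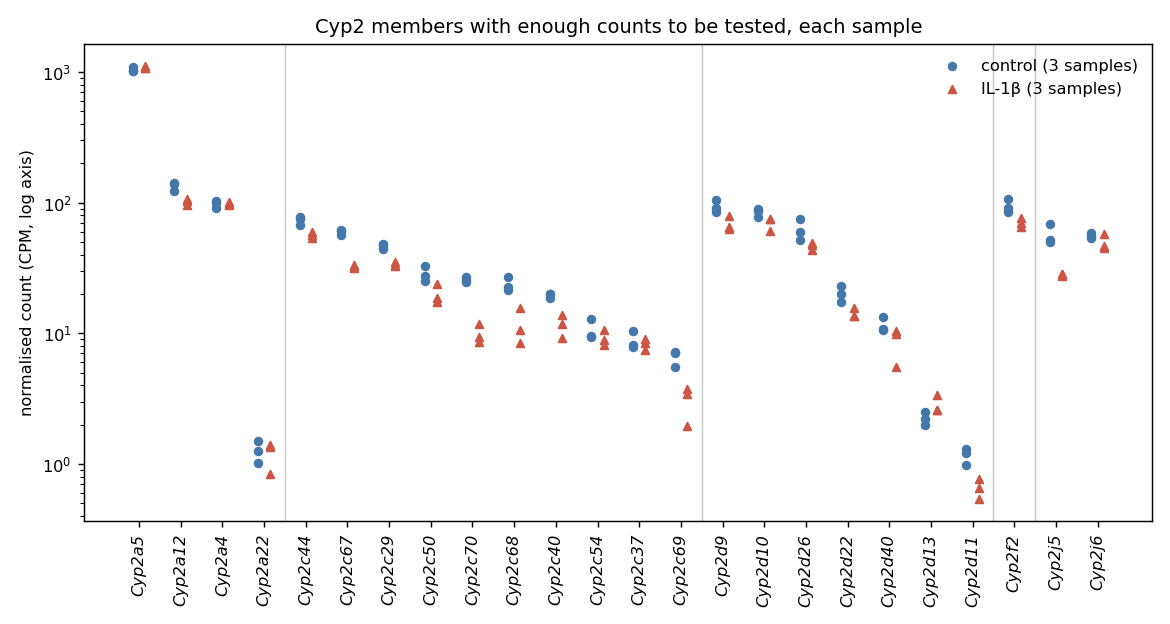
Normalised count (CPM, log axis) of the 24 tested members in each of the 3 control (circles) and 3 IL-1β (triangles) samples, ordered by subfamily and then by control mean. Cyp2a5 stood at 1012 to 1117 CPM in all 6 samples, while the IL-1β points of Cyp2c70, Cyp2c67 and Cyp2j5 sat clearly below their control points.

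The size of the fall differed between the subfamily sums. Summed over their members, Cyp2c counts fell by 34.99% (from 303 ± 14.9 to 197 ± 7.10 CPM, mean ± SD, n = 3), Cyp2j counts fell by 30.96% (from 113 ± 8.56 to 78.3 ± 7.13 CPM), Cyp2f2 fell by 25.6% and Cyp2d counts fell by 23.03% (from 276 ± 30.8 to 212 ± 20.7 CPM). The Cyp2a sum was 1273 ± 51.7 CPM in the controls and 1286 ± 30.4 CPM after IL-1β, a difference within the spread of the samples. These sums are descriptions without a test. They do not depend on how reads were divided between paralogs if each shared read was counted for a single gene of the subfamily, which is not known.

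**Figure D2:**
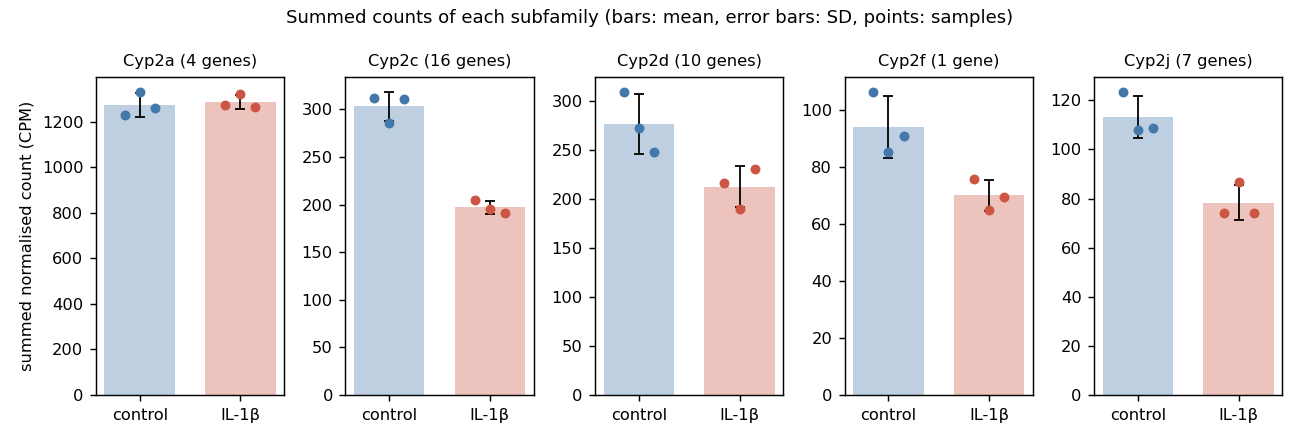
Summed normalised count (CPM, linear axes from 0, each panel with its own scale) of the 5 subfamilies with a tested member; bars are means, error bars SD (n = 3) and points single samples. The Cyp2c samples do not overlap between groups (286 to 312 CPM against 191 to 205 CPM), whereas the Cyp2a samples do.

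Cyp2a5 contributed so many counts that the family total is given with and without it. All 48 members together summed to 2060 ± 32.8 CPM in the controls and 1845 ± 13.3 CPM after IL-1β, a fall of 10.5%, but without Cyp2a5 the sum fell by 25.6%, from 1021 ± 39.2 to 759 ± 16.95 CPM. Cyp2a5 made up 48.7%, 52.4% and 50.3% of the family's counts in the controls and 58.1%, 60.2% and 58.2% after IL-1β. The family as a whole took 0.2096 to 0.21% of all counts in the controls and 0.179 to 0.183% after IL-1β.

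In the Cyp2c subfamily 8 of 10 tested members fell, against 6.44% of all tested genes. Cyp2c70, which 6β-hydroxylates chenodeoxycholic acid to the muricholic acids of rodent bile, lies at chr19:40153361-40187286. It was at 25.3, 27.1 and 24.8 CPM in the controls and at 9.29, 11.7 and 8.54 CPM after IL-1β. All treated samples lay far below the lowest control, and IL-1β replicate 2 was the highest of them. Its expression fell by 1.38 (log2 scale, SE 0.153, edgeR adjusted p = 2.04e-07), the largest reduction in the family.

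Cyp2c67, Cyp2c68, Cyp2c40 and Cyp2c69 form a run of close paralogs on the minus strand of the same cluster, and Cyp2c40 is known to hydroxylate arachidonic acid. Cyp2c67 was at 61.7, 56.4 and 60.8 CPM in the controls and at 31.8, 33.2 and 32.3 CPM after IL-1β, a reduction of 0.88 (SE 0.0970, edgeR adjusted p = 2.09e-07). The treated samples lay within 1.4 CPM of each other and far below the controls. Cyp2c68 was at 21.5, 22.6 and 26.8 CPM and then at 15.5, 10.6 and 8.45 CPM, with a more scattered treated group, and fell by 1.05 (SE 0.178, edgeR adjusted p = 0.000126). Cyp2c40 was at 19.9, 18.7 and 20.1 CPM and then at 11.9, 9.21 and 13.8 CPM, and fell by 0.75 (SE 0.163, edgeR adjusted p = 0.00201). Cyp2c69, the least abundant of the run, was at 5.54, 7.15 and 7.05 CPM and then at 3.42, 3.74 and 1.95 CPM, and fell by 1.12 (SE 0.299, edgeR adjusted p = 0.0117). The groups did not overlap for any of the 4, but the call of Cyp2c69 was lost without control replicate 2 (edgeR adjusted p = 0.0521) and without IL-1β replicate 3 (0.0823).

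Many reads of these 4 genes may not be assignable to one of them with confidence. Among the 75-nt windows in the last 500 nt of each annotated transcript, those within 2 mismatches of another Cyp2 member made up 100% for Cyp2c40, 95.3% for Cyp2c67, 91.3% for Cyp2c68 and 69.7% for Cyp2c69. Windows found without a mismatch in another gene made up 61%, 32.9%, 33.3% and 28.4%, in the same order. How reads of shared windows were counted was not given in the sources used here. The sum of the 4 genes does not depend on that division if each shared read was counted for a single gene of the 4, which is not known. It was 109, 105 and 115 CPM in the controls and 62.6, 56.7 and 56.6 CPM after IL-1β, a fall of 46.4%. For Cyp2c70 both shares of windows were 0, so the largest reduction in the family belonged to a gene with no such shared sequence.

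**Figure D3:**
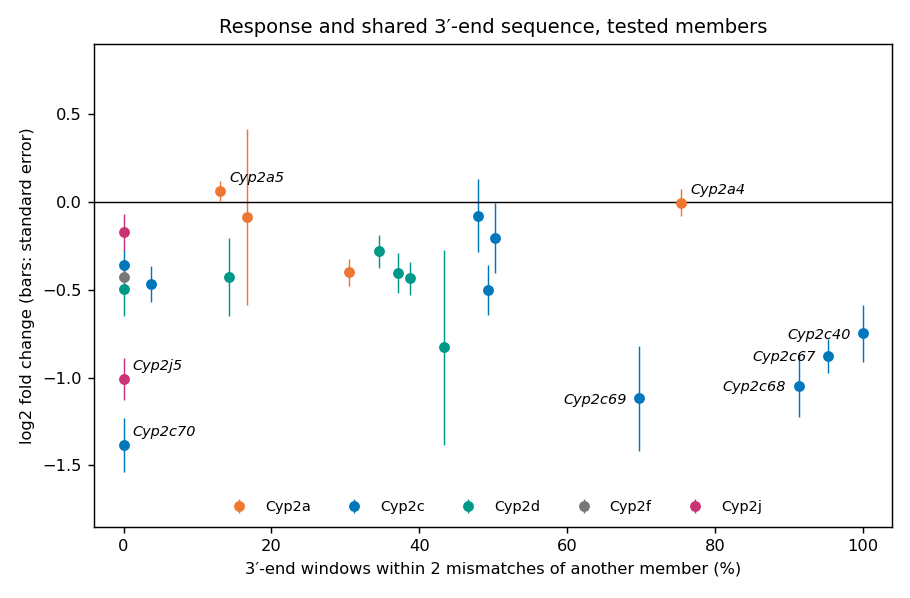
Log2 fold change (IL-1β against control, bars are standard errors) of the 23 tested members matched to a transcript, against the share of 3′-end windows within 2 mismatches of another member (%). Cyp2c70 and Cyp2j5 sit at 0% with fold changes of -1.38 and -1.01, while Cyp2c40, Cyp2c67, Cyp2c68 and Cyp2c69 sit at 69.7% or more.

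Cyp2c29 and Cyp2c44 make epoxyeicosatrienoic acids from arachidonic acid. Cyp2c29 was at 47.4, 44.4 and 47.8 CPM in the controls and at 34.8, 33.1 and 33.0 CPM after IL-1β, with tight, separate groups, and fell by 0.47 (SE 0.101, edgeR adjusted p = 0.00179). Cyp2c44 was at 74.3, 66.8 and 77.6 CPM and then at 53.8, 60.1 and 56.7 CPM, and fell by 0.36 (SE 0.0906, edgeR adjusted p = 0.00760). Here too the groups did not overlap, but without IL-1β replicate 1 the edgeR adjusted p of Cyp2c44 was 0.0629. Set against Cyp2c29 within each library, Cyp2c70 gave 53.5, 61.1 and 51.8 counts per 100 counts of Cyp2c29 in the controls and 26.7, 35.4 and 25.9 after IL-1β. The ratio thus differed between the groups without overlap, although an exact two-sided permutation test of 3 against 3 samples cannot go below the p = 0.1 it gave.

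Cyp2c50, Cyp2c37 and Cyp2c54 are a further set of close paralogs, 95.2% to 96.1% identical in coding sequence to their nearest relative among the tested members, and they metabolise arachidonic and linoleic acid. Cyp2c50 was at 32.7, 25.04 and 27.3 CPM in the controls and at 23.9, 17.5 and 18.8 CPM after IL-1β. Every treated sample lay below every control, the highest of them by a small margin, and Cyp2c50 fell by 0.50 (SE 0.141, edgeR adjusted p = 0.0167). The call was lost without control replicate 1, IL-1β replicate 2 or IL-1β replicate 3, at edgeR adjusted p-values of 0.0767, 0.121 and 0.101. Neither Cyp2c37 (8.75 against 8.30 CPM, edgeR adjusted p = 0.888) nor Cyp2c54 (10.5 against 9.15 CPM, edgeR adjusted p = 0.610) passed the test, and their samples overlapped between groups. From 47.9% to 50.2% of the 3′ windows of these 3 genes were within 2 mismatches of another member. Their sum fell by 21.2%, from 47.6 ± 7.16 to 37.5 ± 5.38 CPM (SD, n = 3).

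**Figure D4:**
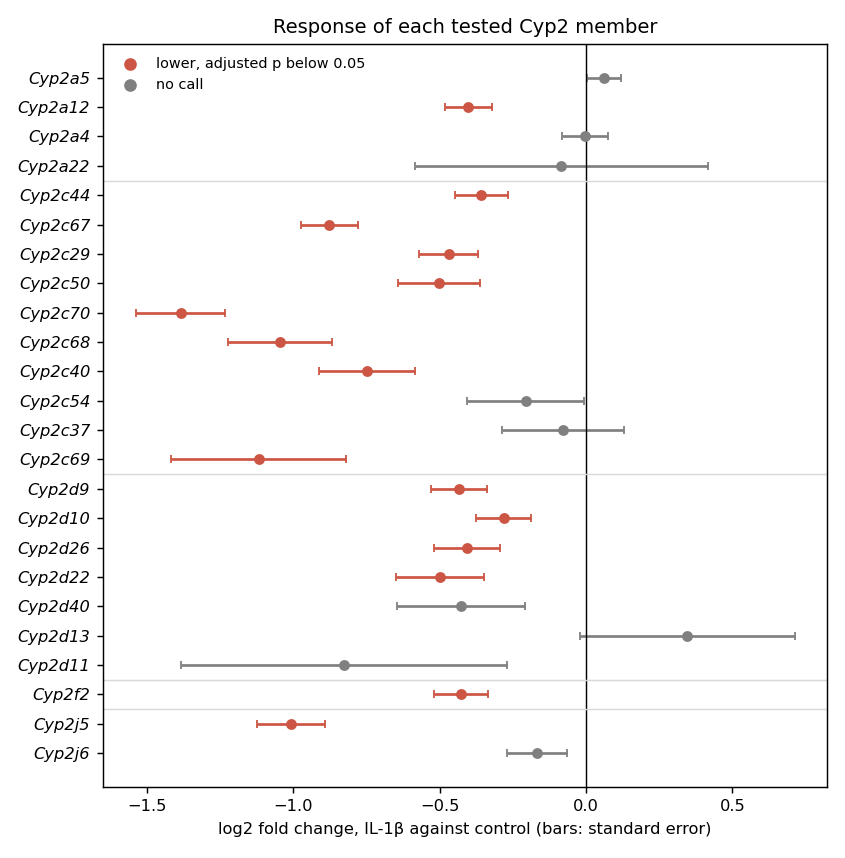
Log2 fold change (IL-1β against control) of each of the 24 tested members, with standard errors, in red where the adjusted p was below 0.05 and in grey elsewhere. The 15 red points lie between -1.38 and -0.28, and the only estimates above 0 are those of Cyp2a5 and Cyp2d13, both grey.

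Of 7 tested Cyp2d members 4 fell, all by modest amounts, where 6.44% of all tested genes fell. Cyp2d9, a steroid 16α-hydroxylase typical of male liver, was at 104, 91.3 and 85.1 CPM in the controls and at 65.5, 63.3 and 78.5 CPM after IL-1β. The samples did not overlap, and Cyp2d9 fell by 0.43 (SE 0.0954, edgeR adjusted p = 0.00216). Cyp2d22, often taken as the mouse counterpart of the drug-metabolising human CYP2D6, was at 22.99, 20.03 and 17.4 CPM and then at 15.6, 13.6 and 13.7 CPM, and fell by 0.50 (SE 0.151, edgeR adjusted p = 0.0273). Cyp2d26 was at 74.8, 59.1 and 51.6 CPM and then at 47.4, 43.6 and 49.1 CPM, and fell by 0.41 (SE 0.113, edgeR adjusted p = 0.0152). Control replicate 1 was the highest of the 6 samples for both genes. Among the called members it was also the highest for Cyp2c50, Cyp2c67, Cyp2d9, Cyp2d10, Cyp2f2 and Cyp2j5. Without it the reduction of Cyp2d26 was 0.25 (edgeR adjusted p = 0.126) and that of Cyp2d22 was 0.39 (0.118).

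Cyp2d10 was at 89.8, 86.7 and 77.8 CPM in the controls and at 75.0, 60.3 and 74.3 CPM after IL-1β, and fell by 0.28 (SE 0.0939, edgeR adjusted p = 0.0477). It was the weakest call in the family, with a DESeq2 adjusted p of 0.0617 and with IL-1β replicate 2 well below the other treated samples. Without that replicate the reduction was 0.18 (edgeR adjusted p = 0.320). The calls of Cyp2d10, Cyp2d22 and Cyp2d26 were each lost without IL-1β replicate 2, at edgeR adjusted p-values of 0.320, 0.109 and 0.107. Other single samples also ended them, namely control 1, control 2, IL-1β 1 or IL-1β 3 for Cyp2d10 (0.0645 to 0.141), control 2 or IL-1β 3 for Cyp2d22 (0.0653 and 0.110) and IL-1β 1 for Cyp2d26 (0.0604). These edgeR values belong to a subfamily in which 34.5% of the 3′ windows of Cyp2d10, 38.7% of those of Cyp2d9 and 37.1% of those of Cyp2d26 were within 2 mismatches of another member, whereas Cyp2d22 had none.

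The remaining tested Cyp2d genes were scarce and passed no test. Cyp2d40 had means of 11.6 and 8.60 CPM (edgeR adjusted p = 0.250). Cyp2d11 had 1.17 and 0.651 CPM (edgeR adjusted p = 0.411). Cyp2d13, annotated as a non-coding RNA, had 2.23 and 2.83 CPM (edgeR adjusted p = 0.648).

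The sole Cyp2f member, Cyp2f2, which bioactivates naphthalene and marks the periportal side of the lobule, was at 106, 85.2 and 90.7 CPM in the controls and at 75.7, 65.0 and 69.4 CPM after IL-1β. Its groups did not overlap and none of its 3′ windows was shared, and it fell by 0.43 (SE 0.0923, edgeR adjusted p = 0.00189). Of the fixed lists of zonated genes, 3 of 11 tested periportal genes and 4 of 12 tested pericentral genes fell, and 0 and 1 rose, where 6.44% of all tested genes fell and 6.97% rose.

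In the Cyp2j subfamily the 2 tested members, 78.3% identical in coding sequence and without shared 3′ windows, differed in their call. Cyp2j5, an arachidonic acid epoxygenase of liver and kidney, was at 68.4, 51.9 and 49.8 CPM in the controls and at 27.7, 28.6 and 28.3 CPM after IL-1β. The treated samples were nearly equal and far below the lowest control, and Cyp2j5 fell by 1.01 (SE 0.117, edgeR adjusted p = 4.76e-07). Cyp2j6 was at 53.3, 55.9 and 58.8 CPM and then at 46.5, 57.8 and 45.1 CPM. Its treated replicate 2 lay among the controls, and the difference did not pass the test (log2 fold change -0.17, SE 0.103, edgeR adjusted p = 0.352). Within each library, Cyp2j5 gave 128, 92.8 and 84.8 counts per 100 counts of Cyp2j6 in the controls and 59.5, 49.5 and 62.8 after IL-1β. These ratios did not overlap (exact two-sided permutation p = 0.1, the smallest possible with 3 against 3).

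The Cyp2a subfamily held both the most counted member and the genes that changed least. Cyp2a5, the coumarin 7-hydroxylase that also oxidises nicotine, was at 1012, 1090 and 1016 CPM in the controls and at 1073, 1117 and 1066 CPM after IL-1β. The groups overlapped, and its log2 fold change was 0.06 (SE 0.0588, edgeR adjusted p = 0.595). Cyp2a4, a steroid 15α-hydroxylase, was at 91.5, 98.6 and 104 CPM and then at 96.8, 95.6 and 101 CPM, with no shift between groups (log2 fold change -0.00347, SE 0.0786, edgeR adjusted p = 0.988). Of the 3′ windows of Cyp2a4, 75.4% were within 2 mismatches of Cyp2a5, and 23.7% were found without a mismatch in another gene. Of those of Cyp2a5, 13.1% were within 2 mismatches of Cyp2a4. The Cyp2a4 value may therefore hold reads of its far more abundant neighbour. Cyp2a4 gave 9.04, 9.05 and 10.2 counts per 100 counts of Cyp2a5 in the controls and 9.02, 8.55 and 9.43 after IL-1β (exact two-sided permutation p = 0.4).

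Cyp2a12, which hydroxylates steroids and bile acids, was the only Cyp2a member that fell. It was at 122, 139 and 142 CPM in the controls and at 102, 106 and 96.4 CPM after IL-1β, without overlap, and fell by 0.40 (SE 0.0789, edgeR adjusted p = 0.000686). Per 100 counts of Cyp2a5 it gave 12.05, 12.7 and 13.9 counts in the controls and 9.51, 9.49 and 9.04 after IL-1β (exact two-sided permutation p = 0.1, the smallest possible). Its closest paralog, Cyp2a22, was scarce, at means of 1.25 and 1.19 CPM, and did not pass the test (edgeR adjusted p = 0.953), and 30.5% of the 3′ windows of Cyp2a12 were within 2 mismatches of it. The 7 ratios of members computed within libraries were chosen after the values were seen, and with Benjamini-Hochberg adjustment over them the exact permutation p was 0.117 for 6 of them and 0.4 for Cyp2a4 against Cyp2a5.

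The other 24 members were not tested. Of these, 8 had no count in any library (Cyp2b13, Cyp2b19, Cyp2c65, Cyp2c66, Cyp2j11, Cyp2j12, Cyp2s1 and Cyp2w1), which allows up to 0.268 to 0.32 CPM per library, counting error only. The remaining 16 had 1 to 33 counts over all 6 libraries, at most 17 in any one. They were Cyp2b9, Cyp2b10, Cyp2b23, Cyp2c38, Cyp2c39, Cyp2c53-ps, Cyp2c55, Cyp2d12, Cyp2d34, Cyp2d37-ps, Cyp2g1, Cyp2j8, Cyp2j9, Cyp2j13, Cyp2t4 and Cyp2u1. Cyp2b10, the classical target of the xenobiotic receptor CAR, had 0, 5 and 1 counts in the controls and 0, 1 and 1 counts after IL-1β. The CAR gene itself, Nr1i3, had 0, 3 and 2 counts and then 6, 3 and 0 counts, so neither could be followed at this depth. The selection also left out Cyp2ab1, whose symbol has a pair of subfamily letters and which had 0 counts in every library, and both Cyp2e1 and Cyp2r1 were lower in every treated sample than in any control. Cyp2e1, the ethanol-inducible pericentral enzyme, fell by 0.26 (SE 0.0693, edgeR adjusted p = 0.00985), and Cyp2r1, the vitamin D 25-hydroxylase, had means of 7.19 and 4.95 CPM (edgeR adjusted p = 0.171).

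The upstream sequences were then compared with the responses. RefSeq promoters were found for 38 members, 20 of them tested, and the 250 bases before the start were searched on both strands. A match to the HNF4 core was present in 7 of 13 members that fell and in 1 of 7 tested members without a call, against 1.19% of all 32851 promoters searched. The matched letters were CAAAGTCCA in Cyp2c70, Cyp2c69, Cyp2c68, Cyp2c67 and Cyp2c40 and CAAAGTGCA in Cyp2c50, Cyp2c37 and Cyp2d26. Cyp2c70 carried its match at -64 to -56 from the start and Cyp2d26 at -58 to -50. Cyp2c37 carried one at -63 to -55 and Cyp2c50 at -61 to -53. In the run of 4 paralogs the match began at -125 in Cyp2c67, -77 in Cyp2c68, -75 in Cyp2c69 and -45 in Cyp2c40. Of the 30 bases on either side of it, 90% to 100% were identical between these 4 genes, and 85% were between Cyp2c37 and Cyp2c50. For the other 29 pairs of the 9 Cyp2 promoters with a match the value was 18.3% to 48.3%. The matches are therefore not independent observations, and an untested member, Cyp2c65, carried the same 9 letters.

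Matches to other motifs were counted in the same windows. The C/EBP letters TTGCNNAA occurred in 2 of 13 members that fell (Cyp2c67 and Cyp2c69) and in 3 of 7 without a call (Cyp2a4, Cyp2a5 and Cyp2c37), against 9.56% of all promoters. The letters TATAAA of the TATA box were found on either strand in 8 of 13 and 5 of 7, against 12.4% of all promoters. On the strand of the gene they lay in Cyp2a12, Cyp2c29 and Cyp2c67 among those that fell. Among those without a call they did so in Cyp2a4, Cyp2a5, Cyp2a22 and Cyp2d11. The remaining members had them only on the opposite strand. The NF-κB motif, searched by its consensus, was matched in Cyp2j5 among those that fell and in Cyp2a4, Cyp2a5 and Cyp2j6 among those without a call, against 7.25% of all promoters. The HNF1 letters GTTAATNAT and the PAR bZIP letters TTANGTAA were in none of these 20 windows (0.737% and 2.06% of all promoters). These matches are not independent observations either, since close paralogs such as Cyp2a4 and Cyp2a5 share upstream sequence. The position of the annotated start also decides which letters fall in the window. That of Cyp2c40 ended at the letters ttgca, where that of Cyp2c69 went on to complete TTGCACAA. A match is a description of letters in this window and shows no binding.

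**Figure D5:**
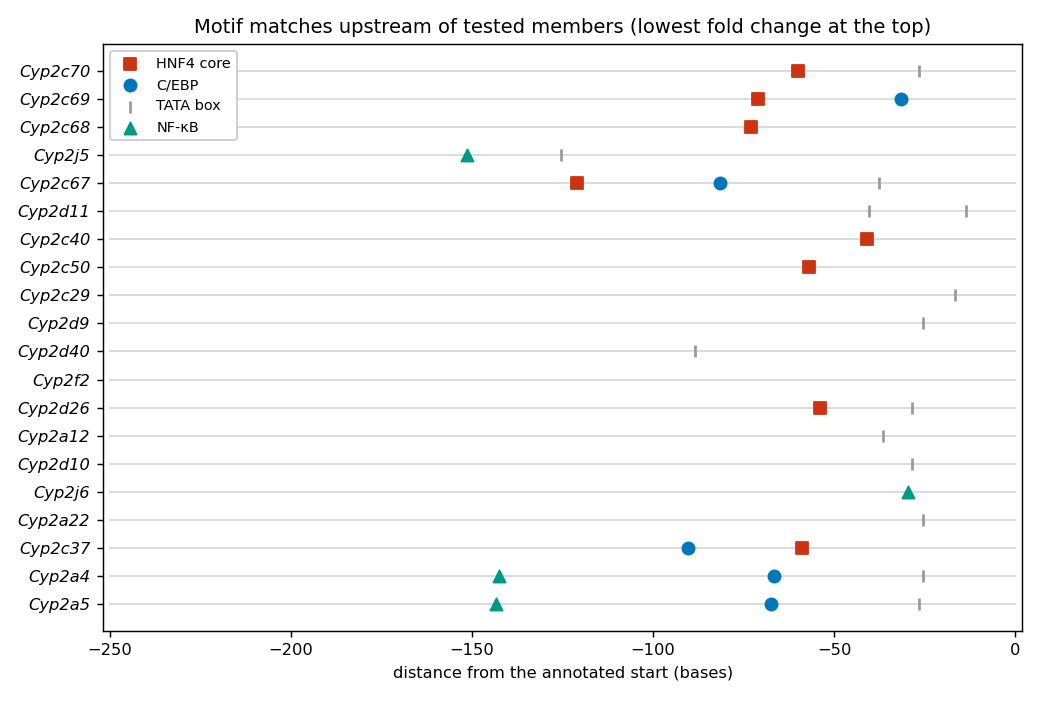
Positions of motif matches in the 250 bases upstream of the annotated start (axis: distance from the start in bases) for the 20 tested members with a promoter, sorted so that the lowest fold change is at the top. HNF4 core matches (squares) lie in 7 of the 13 members that fell and in Cyp2c37, and NF-κB matches (triangles) in Cyp2j5, Cyp2j6, Cyp2a4 and Cyp2a5.

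Among the transcription factors and receptors known to regulate Cyp2 genes, 4 of 26 tested fell and 5 rose, against 6.44% and 6.97% of all tested genes. Hnf4a, the nuclear receptor that binds the HNF4 core, was at 84.6, 91.1 and 87.1 CPM in the controls and at 41.7, 43.8 and 42.5 CPM after IL-1β, and fell by 1.04 (SE 0.0872, edgeR adjusted p = 1.62e-09). Foxa3, a forkhead factor of hepatocytes, fell by 0.99 (SE 0.103, edgeR adjusted p = 7.08e-08), from a mean of 71.1 to 35.8 CPM. Nr1i2, the xenobiotic receptor PXR, fell by 0.77 (SE 0.241, edgeR adjusted p = 0.0331). In the opposite direction, Cebpb, a C/EBP factor of the acute phase response, rose by 0.74 (SE 0.108, edgeR adjusted p = 1.37e-05) and Nfe2l2, which encodes NRF2, rose by 0.47 (SE 0.0656, edgeR adjusted p = 8.44e-06). The part of these factors in the response of the Cyp2 members was not tested.

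Of 8 tested redox partners of P450 enzymes 1 fell and 1 rose, counts near the 6.44% and 6.97% of all tested genes. Por, which passes electrons from NADPH to P450 enzymes, was at 249, 216 and 216 CPM in the controls and at 238, 213 and 219 CPM after IL-1β (edgeR adjusted p = 0.909), and Cyb5a, cytochrome b5, had means of 271 and 285 CPM (edgeR adjusted p = 0.623). Cyb5r3, the cytochrome b5 reductase, fell by 0.48 (SE 0.0860, edgeR adjusted p = 0.000255), while Cyb5b rose by 0.25 (SE 0.0760, edgeR adjusted p = 0.0250). Of 12 haem genes 2 rose and 1 fell, beside 6.97% and 6.44% of all tested genes. Alas1, the rate-limiting enzyme of haem synthesis, rose by 0.45 (SE 0.0931, edgeR adjusted p = 0.00113) and Blvrb, a biliverdin reductase, by 0.61 (SE 0.0666, edgeR adjusted p = 1.85e-07), whereas Hmox1, which degrades haem, fell by 0.29 (SE 0.0866, edgeR adjusted p = 0.0259).

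Of P450 genes outside family 2, 6 of 22 tested fell and 1 rose, beside 6.44% and 6.97% of all tested genes. The median log2 fold change of these 22 was -0.45, close to the -0.43 of the tested members of family 2. Cyp1a2, Cyp3a13 and Cyp3a11, which oxidise drugs and other foreign compounds, fell by 1.49, 0.48 and 0.56 on the log2 scale, and Cyp7b1, an oxysterol 7α-hydroxylase, rose by 0.84 (edgeR adjusted p-values of 2.85e-13, 1.90e-05, 2.53e-05 and 2.30e-06). Whether the members of family 2 responded differently from these was not tested.

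Markers of other liver cells were present and moved in part with the treatment. None of 10 tested Kupffer cell and macrophage markers passed the test (median log2 fold change 0.50). Of the 4 with the smallest adjusted p, Cd74, Marco and Fcer1g were higher in every treated sample than in any control, and C1qa overlapped. Some of the other markers had estimates below 0. The summed level of all 13 was 248 to 277 CPM in the controls and 254 to 285 CPM after IL-1β. Of 8 tested endothelial markers 3 fell and 1 rose, against 6.44% and 6.97% of all tested genes, with the 9 listed genes at 82.5 to 90.3 CPM and then 76.0 to 80.9 CPM. None of 3 tested stellate markers passed the test, at 40.6 to 44.3 and then 43.4 to 47.5 CPM over the 10 listed. Of 2 tested cholangiocyte markers 1 fell, namely Spp1 (means of 190 and 82.7 CPM), against 6.44% of all tested genes. The other, Sox9, was higher in every treated sample than in any control but did not pass the test (log2 fold change 0.21, edgeR adjusted p = 0.0518). The 7 listed summed to 317 to 329 and then 236 to 240 CPM. The part of these cells in the changes of the Cyp2 members was not tested.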

How the data were processed

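RNA was measured by QuantSeq 3′ mRNA-Seq in 6 samples, 3 control and 3 IL-1β, as single-end reads of 75 nt. Per the labels, the authors aligned reads with Bowtie2 to GRCm38 (mm10) and used edgeR with TMM. The counting tool, strand setting and handling of multi-mapped reads were not given in the sources used here. The authors deposited raw counts per gene, used here, beside normalised log2 values, group averages, fold changes and p-values, which were not used.

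Counts were tested in R 4.3.3 with edgeR 4.0.16 (filterByExpr, TMM, quasi-likelihood F test, no covariate), with Benjamini-Hochberg adjustment over 11657 of 23282 genes and a threshold of 0.05. The script was tested on simulated data. CPM used library totals of 9538741 to 11105408 counts, each multiplied by its TMM factor. Rn45s took 11.7% to 14.2% of the counts. Intervals and floors of 3 counts cover counting error only. Samples were grouped by the sample labels. Same-numbered samples did not deviate together (correlations 0.08, 0.03 and 0.00), so the main test had no block. No 2 libraries agreed within sampling noise.

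The members, gene lists and tests were chosen with earlier results of these data known. Values in every sample are given for members with an adjusted p below 0.05 and for the 12 with the highest mean CPM. From each list the 4 smallest adjusted p-values could be named, besides Por, Cyb5a, Alas1, Hmox1, Nr1i2, Nr1i3 and Hnf4a. Transcripts came from GENCODE vM21, matched for 45 members, and promoters from RefSeq (GRCm38.p6). Only Snora19, listed once across the chromosome 19 Cyp2c genes with 77 counts in all, overlapped a member. Alternatives were DESeq2 1.42.0, limma 3.58.1 on log2(CPM + 1), edgeR's exact test, other scalings and filters, Rn45s removed, a replicate block and each sample left out.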

Additional observations from a re-analysis of the deposited data

How the results depend on the processing

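With every sample kept, the number of members that fell was 15 under upper-quartile scaling, total-count scaling, limma, edgeR's exact test, no filter, at least 10 counts in every library, the replicate block and removal of Rn45s, and 14 with DESeq2. It was 10 at an adjusted p below 0.01 and 11 to 15 with 1 sample left out, which left 1 arm with 2 samples. No member rose under any of these. The replicate block (15 lower, 0 higher) changed no call of a member. The labels do not say whether same-numbered samples belong together. Scaling by total counts shifted the median of all genes to -0.0554 and called 1007 genes lower and 662 higher, against 751 and 812 with TMM. Over all settings with every sample, 713 to 1007 genes fell and 662 to 892 rose. Of 162 values for single members with every sample, 161 kept their direction and side of the threshold and 1 passed the threshold no longer (Cyp2d10, DESeq2). Of 108 values with 1 sample left out, 86 did, 18 lost the threshold with the same direction (Cyp2c44, Cyp2c50, Cyp2c69, Cyp2d10, Cyp2d22 and Cyp2d26) and 4 changed sign. The 4 were all of Cyp2a4, which had no call and ranged from -0.05 to 0.0356, with 0.0062, 0.00969, 0.0156 and 0.0356 above 0. The cause of these losses beyond fewer samples was not tested. Members with few counts, and how reads of near-identical 3′ ends were divided, limit what can be said of single paralogs.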
